A study of Mus musculus with 24 samples.

Results

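The comparison of Dnmt1 hypomorph with wildtype haematopoietic stem cells (HSC) rests on 5 of the 13 arrays of a normalization of all samples, taken by their titles: 3 of hypomorph HSC and 2 of wildtype HSC. Every gene that passed a filter on dim probe sets was a member, 12765 of the 18194 genes on the array. Cells came from the bone marrow of 129ola mice, 8 to 12 weeks old. Hypomorph animals had the genotype Dnmt1-/chip, a null allele combined with the chip allele of reduced function, in every cell of the body, and wildtype animals were Dnmt1+/+. The other arrays held myeloid progenitors (MP), 3 from hypomorph and 3 from wildtype animals, and wildtype B cell progenitors (2 arrays). The deposited table repeats the HSC and MP hybridisations in another normalization, which adds no replicates. The question was how the hypomorph genotype changes expression in HSC, and whether a change runs towards B cell progenitors as well as towards MP.

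Dnmt1 encodes the maintenance methyltransferase, which restores CpG methylation on the daughter strand after replication. Haematopoietic stem cells divide rarely, hold transcripts of several lineages at low level and give rise to all blood cells. Granulocytes, monocytes, mast cells, platelets and red cells arise through myeloid progenitors, and lymphocytes through lymphoid progenitors, of which the B cell progenitors studied here are one kind. Promoters rich in CpG are mostly unmethylated in somatic cells, and those of some germ cell genes are a known exception that Dnmt1 keeps methylated.

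The values are log2 intensities, and a change is the mean of the hypomorph arrays minus that of the wildtype arrays, with its standard error (SE) from limma. A gene is called where the limma adjusted p is under 0.05. Values under 4.64, the median of all values and the level of the filter, are dim, and a change from or to a dim level is a difference of measured intensities rather than an exact fold of RNA. Whether each array had its own animal is not in the labels, so p-values cover the spread between arrays and nothing else. That spread, and with it the SE, was pooled for each gene over all 13 arrays, MP and B progenitors included. In sorted populations, a smaller number of expressing cells and a lower level in each cell cannot be told apart. The stem cell list was at a mean level of 8.99 and 9.08 on the wildtype HSC arrays, against 7.04 to 7.37 in wildtype MP and 5.54 to 5.62 in B progenitors. The wildtype HSC arrays differed from each other by at least 2-fold in 1179 genes. Hypomorph HSC arrays 1 and 3 did so in 2160, 2 and 3 in 839, and 1 and 2 in 408. MP wildtype arrays 1 and 2 differed in 543 and the B progenitor arrays in 750, so the pooled spread can be narrower than that within HSC. The Y-linked gene Eif2s3y was at 9.31, 6.95 and 8.10 on the hypomorph and at 8.68 and 2.35 on the wildtype HSC arrays, so that gene was dim on wildtype array 2 alone. Kdm5d, also Y-linked, was at 6.18, 3.28 and 6.09 and at 6.02 and 2.80, so hypomorph array 2 was dim for it as well, and Xist was lowest on hypomorph array 1 (9.83, against 11.96 to 12.70 on the others). The part of sex-linked differences in the results was not tested, and values without an array are given beside the results that moved with it, most often wildtype array 2.

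Of the 12765 genes, 1380 (10.8%) were called in HSC, 686 (5.37%) higher and 694 (5.44%) lower in hypomorph cells, and 1011 (7.92%) of these changed by at least 2-fold. All arrays of a group lay on one side of the other group for 4543 genes (35.6%). In MP the same genotype comparison called 75 genes (0.588%), and for 720 genes (5.64%) the effect in HSC differed from that in MP by the interaction term of the model. The median change over all genes in HSC was -0.11. With each array centred on its own median, 749 genes were higher and 453 lower, so 62.3% of called genes were higher against 49.7% without centring. Without HSC wildtype array 2 the calls were 254 higher and 202 lower, of which 399 were among the 1380, and without HSC hypomorph array 2 they were 361 higher and 331 lower. With only the 5 HSC arrays in the model, 82 genes were higher and 58 lower, all 140 among the 1380.

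Dnmt1 itself was at 9.02, 8.48 and 9.31 on the hypomorph and 11.80 and 11.58 on the wildtype arrays. The groups did not overlap, and the level in hypomorph HSC was 6.75-fold lower, a change of -2.75 (SE 0.24, limma adjusted p = 2.85e-05). Of the gene's other probe sets, one changed by -2.51 (limma adjusted p = 0.000172, adjusted across the array's probe sets) and one by -0.75, from 10.2 to 9.43, without a call (limma adjusted p = 0.106).

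**Figure D1:**
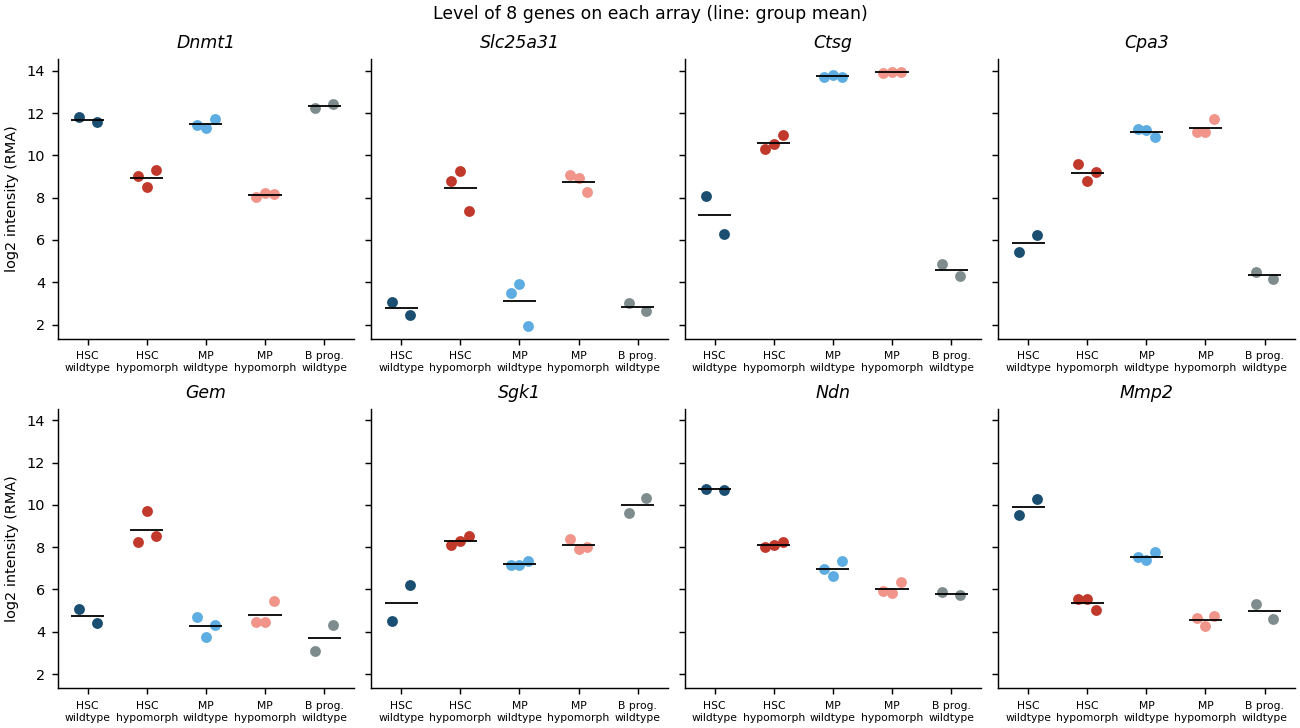
Level of 8 genes on each of the 13 arrays, as log2 RMA intensity, by cell type and genotype. Points are arrays and lines are group means. Slc25a31 and Gem were high on every hypomorph HSC array, Ctsg and Cpa3 lay between wildtype HSC and MP, and Sgk1 lay between wildtype HSC and B progenitors.

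Slc25a31, a mitochondrial nucleotide carrier gene known from germ cells, had the largest rise in measured intensity. Its level was 8.78, 9.26 and 7.38 on the hypomorph and 3.07 and 2.47 on the wildtype arrays, with no overlap of the groups, and the change was 5.70 (SE 0.56, limma adjusted p = 6.52e-05). The wildtype values were dim, so the size of the rise is not an exact fold. Wildtype MP and B progenitors were at 3.10 and 2.83, close to wildtype HSC. The promoter of this gene and of the germ cell RNA helicase gene Ddx4 are shown because both hold CpG, whose methylation Dnmt1 maintains. That of Ccr1, a myeloid chemokine receptor gene with the next largest rise, is shown as a CpG-poor contrast. The sequences are the 250 bases before the annotated start in RefSeq (build GRCm38.p6), on the strand of the gene, with CpG in capitals.

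Slc25a31 (chr3:40708621-40708870, + strand): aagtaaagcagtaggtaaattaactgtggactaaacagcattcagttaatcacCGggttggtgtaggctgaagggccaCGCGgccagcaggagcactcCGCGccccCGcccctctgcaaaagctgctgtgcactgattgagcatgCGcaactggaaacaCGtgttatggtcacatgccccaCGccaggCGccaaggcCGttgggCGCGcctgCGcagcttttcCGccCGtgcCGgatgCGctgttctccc
Ddx4 (chr13:112652311-112652560, - strand): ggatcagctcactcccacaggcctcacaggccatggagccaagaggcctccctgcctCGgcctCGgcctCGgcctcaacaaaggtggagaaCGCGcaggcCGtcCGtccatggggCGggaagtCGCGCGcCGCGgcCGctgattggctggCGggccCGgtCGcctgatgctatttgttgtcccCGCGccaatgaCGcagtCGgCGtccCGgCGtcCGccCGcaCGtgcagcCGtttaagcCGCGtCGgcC
Ccr1 (chr9:123968693-123968942, - strand): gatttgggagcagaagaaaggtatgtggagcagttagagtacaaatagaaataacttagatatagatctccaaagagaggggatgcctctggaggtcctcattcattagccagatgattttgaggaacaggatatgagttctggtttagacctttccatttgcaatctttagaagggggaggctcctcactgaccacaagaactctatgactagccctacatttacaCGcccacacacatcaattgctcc

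The sequences shown hold 18, 31 and 1 CpG, and methylation was not measured here. They were picked for contrast. With 50 bases after the start added, Slc25a31 held 22 CpG and Ddx4 38, against a median of 20 over all genes. Of other risen genes high in wildtype MP, Chdh held 26, Ctsg 8, Btnl9 5 and Cpa3 3. Of other germ cell genes, Stag3 held 30, Rec8 18 and Syce1 14. Ddx4 was at 5.17, 6.19 and 5.10 on the hypomorph and 3.06 and 2.52 on the wildtype arrays, again without overlap, and rose by 2.70 (SE 0.32, limma adjusted p = 0.000232). Ccr1 was at 8.98, 8.37 and 8.34 on the hypomorph and 3.83 and 3.32 on the wildtype arrays. All its hypomorph values lay far above the wildtype ones, a change of 4.99 (SE 0.27, limma adjusted p = 5.91e-07), and the mean of its probe sets gave 3.33. Wildtype MP expressed Ccr1 at 9.86 and B progenitors at 2.90.

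Windows of 250 bases before to 50 after the start were on hand for 10317 of the genes tested, for 553 of those called higher and for 548 of those called lower. The median ratio of observed to expected CpG was 0.839 in genes called higher, 0.662 in genes called lower and 0.75 in all. The motif TTCCCGC, the core of an E2F site, was present on either strand in 14.5% of windows of genes called higher, 6.39% of those called lower and 8.30% of all. Without the members of the DNA replication and mitosis lists it was in 13.7% of those called higher. CCGGAAG, the core of an Ets site, was present in 21.0%, 12.4% and 17.6%, and CACGTG, the E-box, in 11.4%, 8.58% and 10.1% of windows called higher, called lower and of all. The motif of Gata factors, AGATAAG, was present in 1.99%, 1.64% and 1.80%. The 300-base windows of Slc25a31 and Ddx4 hold both TTCCCGC and CACGTG, with TTCCCGC of Slc25a31 not among the 250 bases shown, and that of Ccr1 holds none of the 4 motifs. A match is a stretch of letters and does not show binding.

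Among the other rises of the greatest size were genes of unlike function. Chdh, the mitochondrial choline dehydrogenase, was at 8.11, 8.26 and 8.17 on the hypomorph and 3.70 and 4.22 on the wildtype arrays and rose by 4.22 (SE 0.25, limma adjusted p = 8.18e-07). Gem, a small GTPase that inhibits calcium channels, was at 8.27, 9.70 and 8.52 on the hypomorph and 5.08 and 4.40 on the wildtype arrays and rose by 4.09 (SE 0.47, limma adjusted p = 0.000186). The butyrophilin-like gene Btnl9 was at 8.5, 8.33 and 9.12 on the hypomorph and 4.30 and 5.10 on the wildtype arrays and rose by 3.95 (SE 0.29, limma adjusted p = 7.59e-06). In each of these the lowest hypomorph array was more than 8-fold above the higher wildtype array. Tent5a, a non-canonical poly(A) polymerase gene, rose by 3.37 (SE 0.37, limma adjusted p = 0.000121). Chdh, Btnl9 and Tent5a were high in wildtype MP (10.42, 8.92 and 9.01), and Gem was not (4.27).

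The largest fall was that of Mmp2, the matrix metalloproteinase gelatinase A. It was at 5.54, 5.57 and 5.02 on the hypomorph and 9.52 and 10.28 on the wildtype arrays, 23-fold lower with no overlap, a change of -4.52 (SE 0.29, limma adjusted p = 1.98e-06). Pde2a, a cyclic nucleotide phosphodiesterase gene, was at 9.79, 9.68 and 9.50 on the hypomorph and 11.96 and 12.99 on the wildtype arrays and fell by 2.82 (SE 0.26, limma adjusted p = 3.65e-05). Inha, an inhibin subunit gene, was at 5.65, 5.20 and 4.77 on the hypomorph and 7.49 and 8.15 on the wildtype arrays and fell by 2.61 (SE 0.28, limma adjusted p = 0.000106). These genes were named among those with separate groups, so their separation is no further support. Krt8, an epithelial keratin gene, changed by -2.59, the serine protease gene Htra3 by -2.52 and the inactive rhomboid gene Rhbdf1 by -2.52, with limma adjusted p between 2.73e-05 and 0.000311. With probe sets averaged Htra3 changed by -1.13. Ndnf, a secreted neuron-derived factor gene, changed by -3.12, but by -1.45 without HSC wildtype array 1 and -4.78 without HSC wildtype array 2.

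A part of the genes of the mast cell, granulocyte and monocyte lineages rose in hypomorph HSC. Of 18 mast cell, basophil and eosinophil genes tested, 7 were called higher and 0 lower (median 0.86), of 34 genes of granulocyte-monocyte progenitors 9 higher and 1 lower (median 0.46), and of 19 genes of mature neutrophils and monocytes 3 higher and 0 lower (median 0.74). The shares called higher were 38.9%, 26.5% and 15.8%, against 5.37% of all genes. Leaving out an HSC array gave 7 or 8, 6 to 10 and 2 or 3 higher calls, and up to 2 lower calls in the mast cell list (without HSC wildtype array 2). Cpa3, the mast cell carboxypeptidase, was at 9.57, 8.79 and 9.19 on the hypomorph and 5.45 and 6.24 on the wildtype arrays, with no overlap, and rose by 3.34 (SE 0.30, limma adjusted p = 2.95e-05). The high-affinity IgE receptor subunit Fcer1a was at 7.71, 6.59 and 6.97 on the hypomorph and 4.02 and 3.79 on the wildtype arrays and rose by 3.18 (SE 0.34, limma adjusted p = 0.000106). Mcpt8, a basophil protease gene, was at 7.76, 7.71 and 8.02 on the hypomorph and 4.76 and 4.93 on the wildtype arrays and rose by 2.98 (SE 0.26, limma adjusted p = 2.73e-05). On these 3 genes every hypomorph array was more than 4-fold above both wildtype arrays. Cma1, the mast cell chymase, rose by 3.25, the receptor subunit Ms4a2 by 2.72 and the histidine decarboxylase gene Hdc, which makes histamine, by 2.11. The granzyme gene Gzmb was called too (2.27, limma adjusted p = 0.00727) but not without HSC wildtype array 2 (2.13, limma adjusted p = 0.0783).

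Ctsg, a protease of neutrophil primary granules, was at 10.31, 10.56 and 10.95 on the hypomorph and 8.08 and 6.29 on the wildtype arrays, a change of 3.42 (SE 0.39, limma adjusted p = 0.000154). Ms4a3, a membrane protein gene of granulocyte-monocyte progenitors, was at 9.50, 8.99 and 9.79 on the hypomorph and 7.0 and 5.31 on the wildtype arrays and rose by 3.27 (SE 0.42, limma adjusted p = 0.000389). Fcgr3, a low-affinity IgG receptor, was at 6.32, 5.83 and 5.85 on the hypomorph and 3.31 and 3.24 on the wildtype arrays and rose by 2.72 (SE 0.21, limma adjusted p = 9.24e-06). The hypomorph arrays were above both wildtype arrays for each, and the wildtype arrays differed from each other by more than 2-fold for Ctsg and Ms4a3. The transglutaminase gene F13a1 rose by 2.93, the cystatin gene Cst7 by 2.27 and the monocyte chemokine receptor gene Ccr2 by 2.69. Probe sets averaged moved Ccr2 to 1.16. The granule genes Mpo, Elane and Prtn3 had no call. The myeloperoxidase gene Mpo was at 12.98, 12.75 and 12.80 on the hypomorph and 12.19 and 12.26 on the wildtype arrays (0.62, limma adjusted p = 0.106), the neutrophil elastase gene Elane at 6.74, 4.95 and 5.0 on the hypomorph and 6.40 and 4.96 on the wildtype arrays (-0.12, limma adjusted p = 0.909), and the proteinase gene Prtn3 at 10.39, 10.15 and 10.22 on the hypomorph and 10.29 and 10.62 on the wildtype arrays (-0.20, limma adjusted p = 0.580). In wildtype MP these genes were at 14.59, 12.10 and 13.68. The transcription factor gene Cebpa, which drives granulocyte fate, was at 7.48, 6.87 and 6.85 on the hypomorph and 5.70 and 6.65 on the wildtype arrays (0.89, limma adjusted p = 0.0693), and it was called without HSC wildtype array 2 (1.37, limma adjusted p = 0.0300). Mgst1, a glutathione transferase gene, was the member called lower (-0.72, limma adjusted p = 0.0313), lost without HSC hypomorph array 3 (-0.60, limma adjusted p = 0.0693) or HSC wildtype array 2 (-0.65, limma adjusted p = 0.197), and without HSC hypomorph array 1 the lower calls were 2.

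Of 34 erythroid genes 3 (8.82%) were called higher and 1 (2.94%) lower (median 0.05, 5 higher without HSC hypomorph array 3), and of 23 megakaryocyte genes 1 (4.35%) higher and 4 (17.4%) lower (median -0.08), against 5.37% and 5.44% of all genes. The Rh-associated glycoprotein gene Rhag was at 5.76, 6.50 and 7.51 on the hypomorph and 4.21 and 3.71 on the wildtype arrays and rose by 2.63 (SE 0.41, limma adjusted p = 0.00149). The transferrin receptor gene Tfrc, which takes up iron, was at 9.19, 9.10 and 8.63 on the hypomorph and 7.83 and 7.64 on the wildtype arrays and rose by 1.24 (SE 0.22, limma adjusted p = 0.00352). Both had non-overlapping groups. Gata1, the transcription factor of erythroid and megakaryocyte fate, was at 8.95, 8.34 and 8.62 on the hypomorph and 7.47 and 7.15 on the wildtype arrays, a change of 1.33 (SE 0.31, limma adjusted p = 0.0154) that lost its call without HSC wildtype array 2 (1.16, limma adjusted p = 0.148). Klf1, an erythroid transcription factor gene, was at 8.17, 7.65 and 8.56 on the hypomorph and 7.14 and 7.32 on the wildtype arrays (0.90, limma adjusted p = 0.0795), and the erythropoietin receptor gene Epor changed by 0.31, limma adjusted p = 0.587. The member called lower, the biliverdin reductase gene Blvrb (-0.99, limma adjusted p = 0.0350), lost its call without HSC hypomorph array 2 or 3 or either wildtype HSC array. Among megakaryocyte genes, the platelet chemokine gene Ppbp was at 4.98, 5.09 and 5.07 on the hypomorph and 7.71 and 6.11 on the wildtype arrays. It fell by 1.86 (SE 0.42, limma adjusted p = 0.0135), with the call lost without HSC wildtype array 1 (-1.07, limma adjusted p = 0.107). The lower count of this list was 1 without HSC hypomorph array 2, and 2 without HSC hypomorph array 3 or HSC wildtype array 2. The higher count was 0 without HSC wildtype array 1 and 2 without HSC hypomorph array 1 or 3 or HSC wildtype array 2.

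Of 44 B lineage genes tested, 2 (4.55%) were called higher and 2 (4.55%) lower, near the 5.37% and 5.44% of all genes, with a median of -0.10 that was close to the -0.11 of all genes. At an unadjusted limma p under 0.05, 2 were higher and 7 lower. Ebf1 and Pax5, the transcription factors that set and hold B cell fate, were at 3.30, 3.10 and 3.16 on the hypomorph and 2.85 and 3.36 on the wildtype arrays and at 4.40, 4.23 and 4.67 on the hypomorph and 4.35 and 4.78 on the wildtype arrays respectively (0.08, limma adjusted p = 0.861, and -0.13, limma adjusted p = 0.774), while wildtype B progenitors were at 9.34 and 7.08. The interleukin 7 receptor gene Il7r, needed for B cell development, was at 4.10, 3.40 and 3.93 on the hypomorph and 4.12 and 4.54 on the wildtype arrays (-0.52, limma adjusted p = 0.290). The recombinase gene Rag1 changed by -0.36, limma adjusted p = 0.285. Values of both genotypes overlapped for Ebf1, Pax5 and Rag1. The mean level of the 44 genes was 5.92 to 6.01 on hypomorph HSC arrays, 6.0 to 6.15 on wildtype HSC arrays and 10.6 on both B progenitor arrays.

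Btla, an inhibitory receptor gene of lymphocytes, was the exception of largest size in that list. It was at 6.06, 5.98 and 6.32 on the hypomorph and 3.66 and 3.47 on the wildtype arrays, with no overlap, and rose by 2.56 (SE 0.24, limma adjusted p = 4.28e-05), towards 7.91 in B progenitors and past 4.33 in MP. The tetraspanin gene Cd53 also rose (1.04, limma adjusted p = 0.0258), and the antigen receptor genes Cd79b (-0.89, limma adjusted p = 0.0394) and Igll1 (-0.77, limma adjusted p = 0.0461) were called lower. Btla alone kept its call without HSC wildtype array 2, with Cd53 at 0.95, limma adjusted p = 0.181, Cd79b at -0.93, limma adjusted p = 0.170 and Igll1 at -0.70, limma adjusted p = 0.256. Cd53 was also lost without HSC hypomorph array 1 or 2, Cd79b without HSC hypomorph array 2 or 3 or HSC wildtype array 1, and Igll1 on leaving out any 1 HSC array. Of 28 lymphoid priming genes, 2 (7.14%) were called higher and 4 (14.3%) lower, against 5.37% and 5.44% of all genes (1 and 2 without HSC wildtype array 2, 2 and 2 without HSC hypomorph array 2). Ltb, the lymphotoxin beta gene, was at 8.91, 8.90 and 8.51 on the hypomorph and 10.96 and 11.05 on the wildtype arrays, separate between the groups, and fell by 2.23 (SE 0.28, limma adjusted p = 0.000340). The cytokine receptor gene Flt3, which marks lymphoid-primed progenitors, was at 8.88, 8.96 and 8.76 on the hypomorph and 8.85 and 10.13 on the wildtype arrays (-0.62, limma adjusted p = 0.254), and was called lower without HSC wildtype array 1 (-1.26, limma adjusted p = 0.0191). The terminal transferase gene Dntt was at 9.34, 8.95 and 8.06 on the hypomorph and 8.29 and 8.44 on the wildtype arrays (0.42, limma adjusted p = 0.460).

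Other cell types that a bone marrow sort could hold were followed with their own lists. Against 5.37% of all genes called higher and 5.44% lower, of 14 T and NK cell genes 3 (21.4%) were higher and 1 (7.14%) lower, of 13 dendritic cell genes 0 and 1 (7.69%), of 14 macrophage, endothelium and stroma genes 0 and 2 (14.3%), and of 13 plasma cell genes 0 and 0 by limma (0 and 4 at an unadjusted p under 0.05). Without HSC wildtype array 2 these lower counts were 0, 1, 0 and 3 and the T and NK cell list had 1 higher, without HSC hypomorph array 1 the dendritic list had 4 lower, and without HSC hypomorph array 3 the stroma list had 2 higher. The T and NK genes called higher were Thy1, Nkg7 and Gzmb, which are also on the stem cell, granulocyte-monocyte progenitor and mast cell lists in turn. Cd3e, a defining T cell receptor gene, was at 5.40, 5.30 and 5.34 on the hypomorph and 5.41 and 5.42 on the wildtype HSC arrays. The receptor chain gene Cd247 led the T cell falls (-1.04, limma adjusted p = 0.00909, and -1.03, limma adjusted p = 0.0670 without HSC wildtype array 2) and the endothelial gene Emcn those of the stroma list (-1.41, limma adjusted p = 0.0407, and -1.09, limma adjusted p = 0.324 without HSC wildtype array 2, -1.33, limma adjusted p = 0.117 without HSC hypomorph array 2 and -0.99, limma adjusted p = 0.0887 without HSC hypomorph array 3). The syndecan gene Sdc1, of plasma cells, missed the threshold at -1.08, limma adjusted p = 0.05, and was called without HSC wildtype array 2 (-1.64, limma adjusted p = 0.0176). The summed linear level of the T and NK list was 2271 to 2849 on hypomorph and 1402 to 1536 on wildtype HSC arrays, and that of the dendritic list 2811 to 3492 and 4878 to 5255. The sum for granulocyte-monocyte progenitors was 38990 to 49150 in hypomorph HSC, 30540 to 32690 in wildtype HSC and 140249 to 144357 in wildtype MP. That for the stem cell list was 51086 to 67951, 78932 to 86046 and 32335 to 38194. The part of a changed cell mixture in the results was not tested.

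**Figure D2:**
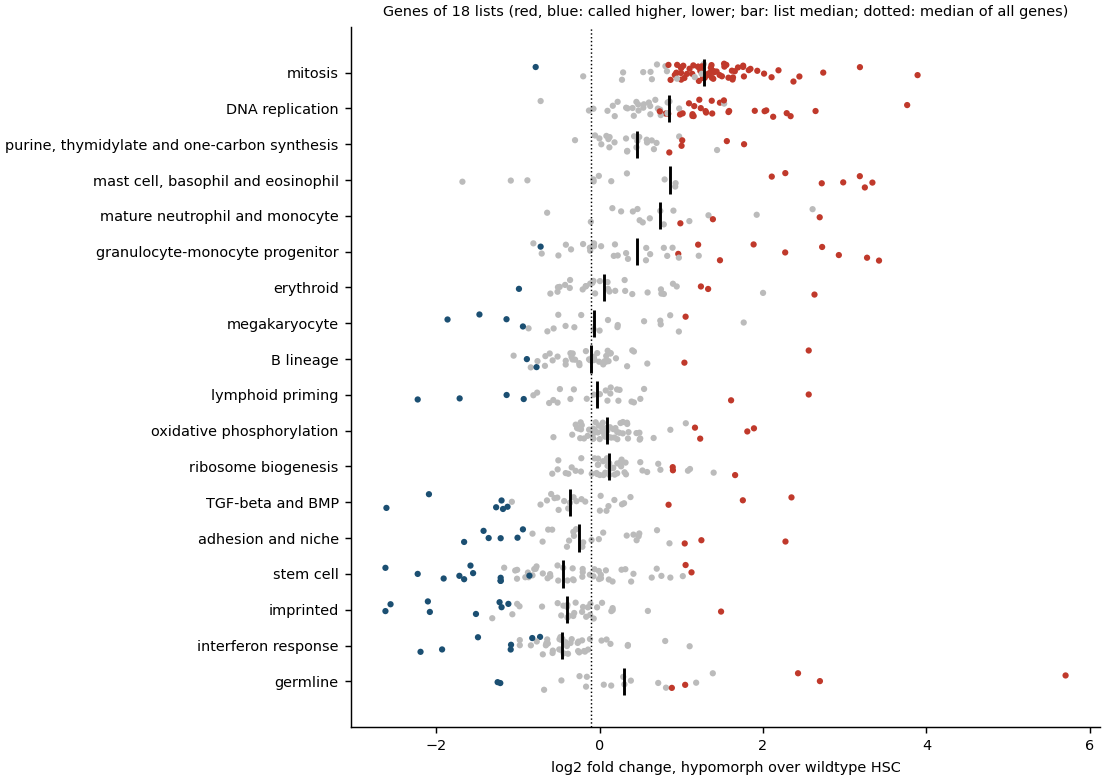
Change of each tested gene of 18 lists in hypomorph over wildtype HSC (horizontal axis, log2). Red and blue points are genes called higher and lower, grey points had no call, bars are list medians, and the dotted line is the median of all genes (-0.11). Mitosis and replication genes lie mainly to the right, with medians of 1.27 and 0.85, and stem cell, imprinted and interferon genes mainly to the left.

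To place the genotype effect between both lineages without the HSC arrays, genes were classed by the difference of wildtype MP from wildtype B progenitors. There were 2369 genes (18.6%) called and at least 2-fold higher in MP and 986 (7.72%) in B progenitors. Of the MP-high genes, 149 (6.29%) were called higher and 151 (6.37%) lower in hypomorph HSC, against 5.37% and 5.44% of all genes. Of the B-high genes, 85 (8.62%) were called higher and 68 (6.90%) lower. Without the members of the replication and mitosis lists, the B-high genes had 66 (6.85%) and 68 (7.05%). The median change was -0.09 in MP-high genes, -0.13 in B-high genes and -0.11 in all. Over all 12765 genes, the change in hypomorph HSC correlated with the wildtype difference of MP from B at r = 0.048, a description across genes that are not independent. Without HSC wildtype array 2, MP-high genes had 67 higher and 38 lower calls and B-high genes 38 and 33. Without HSC hypomorph array 2, MP-high genes had 72 and 77 and B-high genes 40 lower.

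The B-high genes with the greatest called rises were partly those of the cell cycle. Ccne2, a G1/S cyclin gene, was at 7.5, 8.02 and 7.61 on the hypomorph and 4.34 and 3.54 on the wildtype arrays and rose by 3.76 (SE 0.33, limma adjusted p = 2.73e-05). Esco2, which acetylates cohesin in S phase, rose by 3.34, and Lrr1, a replisome disassembly factor gene, by 2.93 (1.84 with probe sets averaged). Sgk1, a serum- and glucocorticoid-regulated kinase gene, was at 8.09, 8.30 and 8.53 on the hypomorph and 4.52 and 6.23 on the wildtype arrays, with no overlap, and rose by 2.93 (SE 0.39, limma adjusted p = 0.000466). Levels of Sgk1 were 7.22 in wildtype MP and 9.98 in B progenitors. The B-high genes with the greatest called falls were Pde2a, Ltb, an uncharacterised gene, 4930426D05Rik (-2.22), and the interferon-induced GTPase gene Gbp6 (-2.20), the call of which was lost without HSC wildtype array 2 (-2.27, limma adjusted p = 0.0590). Ltb and Gbp6 were lower in wildtype B progenitors than in wildtype HSC (by log2 differences of -3.86 and -2.28), so both falls ran towards the B progenitor level. Pde2a and 4930426D05Rik were higher there than in wildtype HSC (1.49 and 2.56), so their falls ran away from it. Among MP-high genes the greatest called rises were those of Ccr1, Chdh, Btnl9 and Ctsg. The greatest called falls were those of Mmp2, Ndn, Rhbdf1 and the neural adhesion gene Ncam1, which was at 4.40, 4.44 and 4.73 on the hypomorph and 6.74 and 7.08 on the wildtype arrays. Ncam1 was at 8.47, 8.53 and 8.74 in wildtype MP, so its fall ran away from the MP level. Hypomorph HSC lay more than 2-fold below wildtype MP for Mmp2 and Ncam1, but not for Ndn and Rhbdf1.

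The HSC arrays were then set against the wildtype means of MP and of B progenitors, as the root mean square log2 difference over all genes. The distance to MP was 0.734, 0.675 and 0.802 on the hypomorph arrays and 0.974 and 1.08 on the wildtype arrays. The distance to B progenitors was 1.39, 1.32 and 1.32 on the hypomorph arrays and 1.46 and 1.55 on the wildtype arrays. Hypomorph arrays were nearer to both, without overlap. The mean difference was -0.289 for MP and -0.160 for B progenitors. With 3 against 2 arrays the exact two-sided permutation test gave p = 0.2 for each, the smallest it can give. Without the members of the replication and mitosis lists, which left 12636 genes, the differences were -0.280 and -0.150. Cell cycle genes outside these lists, such as Esco2 and Lrr1, stayed in, so the part of the cell cycle was not tested. One minus the Pearson correlation gave the same order, with differences of -0.053 and -0.046.

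**Figure D3:**
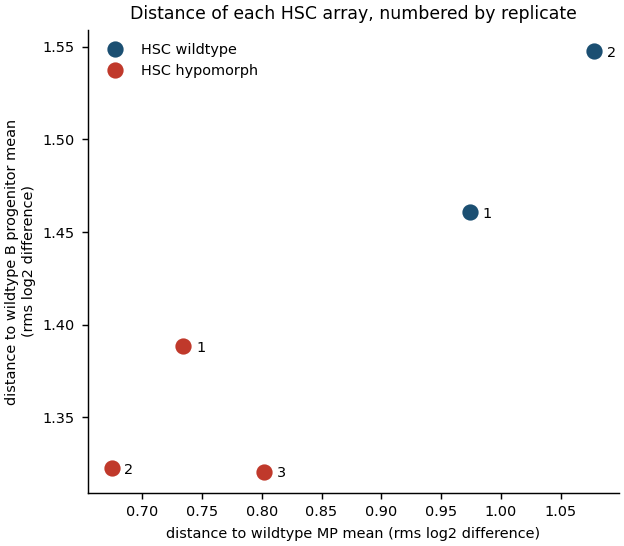
Distance of each HSC array to the mean of wildtype MP (horizontal) and of wildtype B progenitors (vertical), as root mean square log2 difference over 12765 genes. Points are arrays, numbered by replicate, and the axes do not start at 0. The 3 hypomorph arrays lie nearer to both than the 2 wildtype arrays.

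The difference of a lineage from wildtype HSC and the genotype effect share the wildtype HSC arrays, which ties them by construction. The controls were therefore divided. Genes were classed by whether wildtype MP or B progenitors differed at least 2-fold from HSC wildtype array 2, and the change of the hypomorph arrays was taken against HSC wildtype array 1. The median change was 0.43 in 713 genes higher in MP alone, 0.04 in 802 genes higher in B progenitors alone, and 0.72 in 866 genes higher in both, against -0.05 over all genes. With the wildtype arrays exchanged these medians were 0.35 in 707, -0.05 in 926 and 0.89 in 634 genes, against -0.15 over all. Genes lower in MP alone had medians of -0.44 and -0.47, those lower in B progenitors alone -0.14 and -0.28, and those lower in both -0.55 and -0.69. The share of genes at least 2-fold higher was 18.8% and 25.3% for those higher in MP alone, 7.23% and 11% for those higher in B progenitors alone, and 34.6% and 45.9% for those higher in both, against 4.95% and 8.41% of all.

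Each lineage difference from HSC alone correlated with the change across all genes, at r = 0.610 for MP and 0.386 for B progenitors. After the exchange these were 0.465 and 0.288. With both lineage differences in a joint linear description over all genes, the slope was 0.324 for MP and 0.023 for B progenitors, and 0.352 and 0.040 after the exchange. A joint slope describes one lineage at a fixed difference of the other. Taken array by array, the slope for MP was between 0.305 and 0.389 on every hypomorph array and that for B progenitors between -0.008 and 0.069. On each of the 3 arrays the slope for MP exceeded that for B progenitors. These values are descriptions with no test. With classes cut at 4-fold in place of 2-fold, the medians were 0.72 in 229 genes higher in MP alone, 0.23 in 424 higher in B progenitors alone and 1.10 in 247 higher in both. At this cut a gene classed to B progenitors alone can be up to 4-fold higher in MP too, and the reverse. These classes are therefore less exclusive than those at 2-fold. The share at least 2-fold higher was then 33.2%, 19.6% and 58.7%. Leaving out the members of the replication and mitosis lists gave medians of 0.42, 0.02 and 0.68 for genes higher in MP alone, in B progenitors alone and in both.

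**Figure D4:**
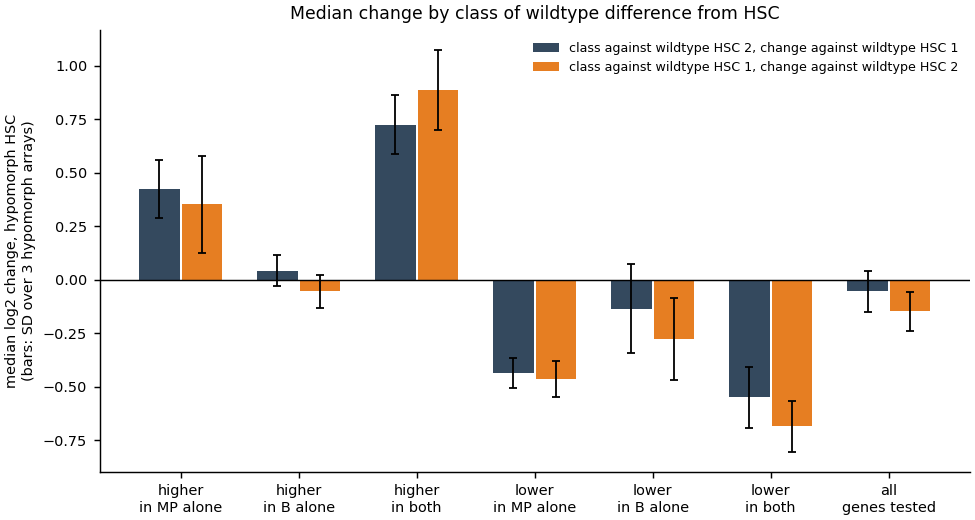
Median log2 change of hypomorph HSC (vertical axis) in classes of genes by their difference between wildtype progenitors and one wildtype HSC array, with the change taken against the other wildtype HSC array. Colours give both assignments of the wildtype arrays, and bars are the SD of the median over 3 hypomorph arrays. Medians were 0.43 and 0.35 for genes higher in MP alone, and 0.04 and -0.05 for genes higher in B progenitors alone.

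The levels that changed genes reached were also compared with wildtype progenitors. Of the 566 genes (4.43%) called and at least 2-fold higher, 99 (17.5%) reached a level within 2-fold of, or below, that of wildtype MP alone, 10 (1.77%) that of B progenitors alone, 422 (74.6%) that of both, and 35 (6.18%) exceeded both by more than 2-fold. Over all genes tested the same shares were 16.9%, 1.25%, 78.4% and 3.53%. The first 3 shares lay near those of all genes. The 10 genes that met only the B progenitor level were Sgk1, Btla, the ubiquitin ligase gene Rnf157, the lysophospholipid receptor gene P2ry10, the MAP kinase phosphatase gene Dusp6, the signalling regulator Eps8, the membrane protein gene Emp1, Nlrc3, Gm26760 and 1700097N02Rik. Rnf157 was at 8.48, 9.01 and 9.35 on the hypomorph and 6.78 and 6.86 on the wildtype arrays and rose by 2.13 (SE 0.28, limma adjusted p = 0.000480), but by 0.42, limma adjusted p = 0.197 with probe sets averaged. Without HSC wildtype array 2 the calls of Dusp6 (1.34, limma adjusted p = 0.117), P2ry10 (1.13, limma adjusted p = 0.410), Eps8 (1.39, limma adjusted p = 0.126), Emp1 (1.27, limma adjusted p = 0.310) and Nlrc3 (0.99, limma adjusted p = 0.220) were lost. P2ry10, Eps8, Emp1 and Nlrc3 were also lost without HSC hypomorph array 2, P2ry10, Eps8 and Nlrc3 without HSC hypomorph array 3, Eps8 and Nlrc3 without HSC wildtype array 1, and Emp1 without HSC hypomorph array 1.

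The 35 genes above both lineages held those whose level in hypomorph HSC is not that of either wildtype progenitor. Of these, 14 were also called in MP between genotypes. Among all genes tested, 21 of the 450 in that class were called in MP, and 75 of the 12765 (0.588%). The class takes genes lower in wildtype MP than in hypomorph HSC, so this count is partly set by the choice of genes. Slc25a31 also passed the filter on dim probe sets through hypomorph arrays alone. Among the 35 are Slc25a31, the synaptonemal complex genes Syce1 and Tex12, and the apoptosis effector gene Perp. Tex12 was at 6.0, 6.14 and 5.77 on the hypomorph and 3.06 and 3.34 on the wildtype arrays, with no overlap, and rose by 2.76 (SE 0.31, limma adjusted p = 0.000148). Syce1 was at 7.08, 6.02 and 5.16 on the hypomorph and 3.15 and 4.17 on the wildtype arrays and rose by 2.43 (SE 0.44, limma adjusted p = 0.00413). Perp was at 8.17, 8.20 and 8.03 on the hypomorph and 6.31 and 6.43 on the wildtype arrays and rose by 1.76 (SE 0.27, limma adjusted p = 0.00130). Ccnd1, the G1 cyclin D1, was at 9.09, 9.14 and 9.68 on the hypomorph and 7.56 and 5.6 on the wildtype arrays and rose by 2.73 (SE 0.47, limma adjusted p = 0.00296), or by 1.75 without HSC wildtype array 2. The small heat shock protein gene Cryab rose by 2.66, and the lectin gene Clec10a was at 8.80, 9.0 and 8.87 on the hypomorph and 5.65 and 6.24 on the wildtype arrays, a change of 2.95 (SE 0.25, limma adjusted p = 2.73e-05). Of the 445 genes (3.49%) at least 2-fold lower, 30 (6.74%) reached the level of MP alone, 20 (4.49%) that of B progenitors alone, 390 (87.6%) that of both and 5 (1.12%) fell below both. Over all genes these shares were 7.97%, 2.95%, 88.2% and 0.909%. The 5 were Dnmt1, Pde2a, the glutamate receptor gene Gria3, Aldh1b1 and Zfp105.

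**Figure D5:**
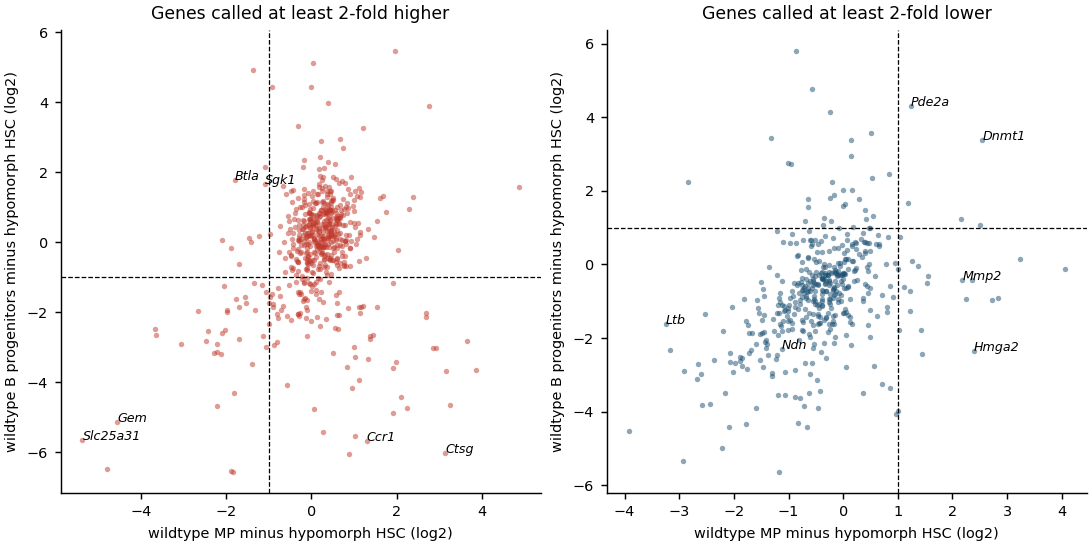
Wildtype MP level (horizontal) and wildtype B progenitor level (vertical) minus the mean level in hypomorph HSC, on a log2 scale, for genes called at least 2-fold higher (left, 566) and lower (right, 445). Dashed lines mark a 2-fold difference. Slc25a31 and Gem lie far to the lower left, above both lineages in hypomorph HSC, and Sgk1 and Btla lie left of the vertical line but above the horizontal one.

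Of 56 DNA replication genes, 28 were called higher and 0 lower (median 0.85), and of 73 mitosis genes 59 higher and 1 lower (median 1.27), or 50% and 80.8% higher against 5.37% of all genes. These higher counts were 14 and 37 without HSC wildtype array 2, and 5 and 12 with only the 5 HSC arrays in the model. Mcm2, a subunit of the replicative helicase, was at 11.04, 11.63 and 11.74 on the hypomorph and 10.09 and 9.70 on the wildtype arrays and rose by 1.58 (SE 0.23, limma adjusted p = 0.000990). Cdc6, which loads that helicase, was at 9.82, 9.88 and 9.52 on the hypomorph and 7.84 and 6.97 on the wildtype arrays and rose by 2.34 (SE 0.26, limma adjusted p = 0.000148). Rrm2, a subunit of ribonucleotide reductase, was at 10.87, 10.86 and 11.46 on the hypomorph and 9.15 and 8.90 on the wildtype arrays and rose by 2.04 (SE 0.25, limma adjusted p = 0.000255). Their groups did not overlap. Among mitosis genes, Bub1, a spindle checkpoint kinase gene, was at 9.46, 8.5 and 8.32 on the hypomorph and 6.20 and 5.84 on the wildtype arrays and rose by 2.74 (SE 0.35, limma adjusted p = 0.000351). Depdc1a rose by 3.89, and the cyclin gene Ccna2 was at 9.51, 9.66 and 9.71 on the hypomorph and 8.01 and 8.38 on the wildtype arrays and rose by 1.43 (SE 0.20, limma adjusted p = 0.000781). The member called lower was the kinesin gene Kif15 (-0.79, limma adjusted p = 0.0446), lost without HSC hypomorph array 1, 2 or 3 or HSC wildtype array 1 (-0.46, limma adjusted p = 0.257). The proliferation marker gene Mki67 was at a mean of 11.27 in hypomorph and 10.07 in wildtype HSC, against 11.77 in wildtype MP and 13.12 in B progenitors (1.20, limma adjusted p = 0.0106 in HSC, and 1.27, limma adjusted p = 0.0608 without HSC wildtype array 2).

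Genes that restrain the cell cycle were called in part. Of 25 p53 targets and cell cycle inhibitors, 4 (16%, against 5.37% of all genes) were higher and 0 lower (median 0.13), and 1 without HSC wildtype array 2. Cdkn1b, the inhibitor p27, was at 7.33, 7.71 and 8.44 on the hypomorph and 6.34 and 6.05 on the wildtype arrays, separate between groups, a change of 1.63 (SE 0.31, limma adjusted p = 0.00500), and Cdkn2c, the inhibitor p18, rose by 1.53. Cdkn1a, the inhibitor p21, rose by 1.04. The calls of Cdkn1b (1.49, limma adjusted p = 0.0644), Cdkn2c (0.97, limma adjusted p = 0.112) and Cdkn1a (0.98, limma adjusted p = 0.114) were lost without HSC wildtype array 2, and that of Cdkn1a also without HSC hypomorph array 2 (0.87, limma adjusted p = 0.0638). Cdkn1c, the imprinted inhibitor p57 of quiescent HSC, was at 7.85, 7.21 and 6.60 on the hypomorph and 8.56 and 7.91 on the wildtype arrays (-1.01, limma adjusted p = 0.147).

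Of 28 genes of purine, thymidylate and one-carbon synthesis, 5 (17.9%, against 5.37% of all genes) were called higher and 0 lower (median 0.45), with 3 higher without HSC wildtype array 1 and 1 without HSC wildtype array 2. Mthfd2, a mitochondrial folate enzyme gene, was at 8.92, 8.72 and 8.65 on the hypomorph and 7.21 and 7.21 on the wildtype arrays, with no overlap, and rose by 1.56 (SE 0.19, limma adjusted p = 0.000311). Psat1, of serine synthesis, was at 10.18, 11.12 and 11.49 on the hypomorph and 9.84 and 8.49 on the wildtype arrays and was called (1.77, limma adjusted p = 0.0122), but not without HSC wildtype array 2 (1.10, limma adjusted p = 0.194). Other biosynthesis lists lay nearer to the share of all genes. Of 57 oxidative phosphorylation genes 5 (8.77%) were higher and 0 lower (median 0.09), with 0 higher without HSC wildtype array 2, 3 without HSC hypomorph array 2 and 10 without HSC wildtype array 1. The largest of these, the complex I gene Ndufb6, was at 10.53, 11.48 and 11.91 on the hypomorph and 10.58 and 8.25 on the wildtype arrays. Its values overlapped between groups, and its change of 1.89 (SE 0.51, limma adjusted p = 0.0321) was 0.72, limma adjusted p = 0.430 without HSC wildtype array 2 and 3.05 without HSC wildtype array 1, with the call also lost without HSC hypomorph array 2 or 3. Of 49 ribosome biogenesis genes 3 (6.12%) were higher (0 without HSC hypomorph array 2 or HSC wildtype array 2). The nucleolar helicase gene Ddx21 led them (1.66, limma adjusted p = 0.0140), and without HSC wildtype array 2 it was at 1.00, limma adjusted p = 0.219, and without HSC hypomorph array 2 at 1.59, limma adjusted p = 0.0504. Of 24 glycolysis genes 2 (8.33%) were higher and 2 (8.33%) lower, and of 21 cholesterol synthesis genes 0 were called by limma (2 higher and 3 lower at an unadjusted p under 0.05). The cholesterol list had 2 higher calls without HSC wildtype array 1, 1 lower without HSC hypomorph array 1 and 1 each way without HSC hypomorph array 3, where the squalene synthase gene Fdft1 was called (-0.96, limma adjusted p = 0.0449, against -0.84, limma adjusted p = 0.0563 with all arrays). The glycolysis list had 0 calls without HSC wildtype array 2, 1 in each direction without HSC hypomorph array 2, and 4 lower without HSC hypomorph array 3. Its leading members were the pyruvate dehydrogenase kinase gene Pdk1 (2.25, limma adjusted p = 0.0189) and the lactate dehydrogenase subunit gene Ldhb (-1.20, limma adjusted p = 0.0122), both lost without HSC wildtype array 2 (1.62, limma adjusted p = 0.239, and -0.99, limma adjusted p = 0.140), and Pdk1 also without HSC hypomorph array 2 (1.91, limma adjusted p = 0.0760).

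Stem cell genes fell in part. Of 57 tested, 11 (19.3%, against 5.44% of all genes) were called lower and 2 higher, with a median of -0.45. There were 4 lower and 0 higher without HSC wildtype array 2, and without HSC hypomorph array 2 they were 6 lower and 2 higher. Without HSC hypomorph array 3 or HSC wildtype array 1, 5 and 4 were higher. Ndn, a Mage family gene linked to quiescence, was at 8.00, 8.09 and 8.22 on the hypomorph and 10.77 and 10.69 on the wildtype arrays, with no overlap and little spread, and fell by 2.63 (SE 0.23, limma adjusted p = 2.85e-05). Its other probe sets changed by -2.89 and -1.74 with a call. Without a call were -1.64 and -1.32 (limma adjusted p = 0.0709 and 0.125, adjusted across the array's probe sets). Fgd5, a gene used to mark HSC, was at 7.86, 8.56 and 8.53 on the hypomorph and 10.24 and 10.22 on the wildtype arrays and fell by 1.91 (SE 0.32, limma adjusted p = 0.00237). Hlf, a transcription factor gene of HSC, was at 10.41, 10.29 and 9.51 on the hypomorph and 10.94 and 12.30 on the wildtype arrays, and its call (-1.55, limma adjusted p = 0.0245) was lost without HSC wildtype array 2 (-0.87, limma adjusted p = 0.330), HSC hypomorph array 3 (-1.27, limma adjusted p = 0.0591) or HSC hypomorph array 2 (-1.66, limma adjusted p = 0.05). The stem cell genes Mecom, Procr and Meis1 had no call. Mecom was at 10.11, 10.22 and 9.79 on the hypomorph and 10.39 and 10.36 on the wildtype arrays (-0.33, limma adjusted p = 0.554), the protein C receptor gene Procr changed by -0.33, limma adjusted p = 0.653, and Meis1 by -0.21, limma adjusted p = 0.727. In wildtype MP, Mecom and Procr were at 5.88 and 6.51. Slamf1 and Thy1, both surface markers used for HSC, were called higher (1.05, limma adjusted p = 0.0147, and 1.12, limma adjusted p = 0.0138). Slamf1 lost its call without HSC wildtype array 1 (0.91, limma adjusted p = 0.0651) or 2 (1.19, limma adjusted p = 0.0541), and Thy1 without HSC wildtype array 2 (0.92, limma adjusted p = 0.152). Cd48, the surface marker absent from the most primitive HSC, was at 10.61, 9.98 and 9.05 on the hypomorph and 8.25 and 8.29 on the wildtype arrays (1.61, limma adjusted p = 0.0102, and 1.63, limma adjusted p = 0.0753 without HSC wildtype array 2).

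Against 5.37% of all genes higher and 5.44% lower, of 30 adhesion and niche genes 3 (10%) were higher and 6 (20%) lower (1 and 2 without HSC wildtype array 2, 2 and 3 without HSC hypomorph array 2, 1 and 6 without HSC hypomorph array 1, 5 and 4 without HSC hypomorph array 3), and of 31 TGF-beta and BMP genes 3 (9.68%) higher and 6 (19.4%) lower (1 and 2 without HSC wildtype array 2). Itgal, the integrin subunit of LFA-1, was at 9.28, 9.42 and 9.17 on the hypomorph and 7.14 and 6.89 on the wildtype arrays and rose by 2.27 (SE 0.30, limma adjusted p = 0.000459), with probe sets averaged at 1.09. Jam2, a junctional adhesion gene, was at 4.61, 4.90 and 4.26 on the hypomorph and 6.09 and 5.81 on the wildtype arrays and fell by 1.36 (SE 0.29, limma adjusted p = 0.00931). Icam1, the ligand of LFA-1 and a neighbour of Dnmt1 on chromosome 9, was at 8.31, 8.31 and 7.94 on the hypomorph and 9.37 and 9.85 on the wildtype arrays and fell by 1.42 (SE 0.25, limma adjusted p = 0.00311). All 3 had separate groups, and Icam1 had -1.18, limma adjusted p = 0.0504 without HSC wildtype array 2. None of the other genes among the 19 tested neighbours of Dnmt1 was called by limma or had an unadjusted p under 0.05. The endothelial receptor gene Robo4 had the largest fall in the adhesion list (-1.66, limma adjusted p = 0.0107, and -1.55, limma adjusted p = 0.104 without HSC wildtype array 2). Bmp4, a secreted ligand, was at 4.56, 4.24 and 4.35 on the hypomorph and 6.63 and 6.31 on the wildtype arrays and fell by 2.09 (SE 0.24, limma adjusted p = 0.000185). Tgfbi, an extracellular matrix protein gene induced by TGF-beta, was at 8.85, 9.94 and 10.17 on the hypomorph and 8.11 and 6.50 on the wildtype arrays. Its call (2.35, limma adjusted p = 0.00723) was lost without HSC wildtype array 2 (1.54, limma adjusted p = 0.126), and probe sets averaged gave 1.13. Id2, an inhibitor of E proteins and a BMP target, was at 7.23, 6.17 and 6.96 on the hypomorph and 4.64 and 5.43 on the wildtype arrays and rose by 1.75 (SE 0.33, limma adjusted p = 0.00526), with probe sets averaged at 0.90.

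Of 35 Notch and Wnt genes 0 were higher and 4 (11.4%, against 5.44% of all genes) lower (0 without HSC wildtype array 2, 2 without HSC hypomorph array 2), led by the Wnt receptor gene Fzd4 (-1.22, limma adjusted p = 0.0102), lost without HSC wildtype array 2 (-1.21, limma adjusted p = 0.0768) and with probe sets averaged (-0.62, limma adjusted p = 0.0764). Of 32 cytokine receptor and feedback genes 0 were higher and 2 (6.25%, near that background) lower (5 without HSC hypomorph array 1, 1 without HSC hypomorph array 2 or HSC wildtype array 2). Cish, a feedback inhibitor of cytokine signalling, was at 9.18, 8.28 and 8.35 on the hypomorph and 10.05 and 10.12 on the wildtype arrays, with no overlap, and fell by 1.48 (SE 0.26, limma adjusted p = 0.00357). Of 31 immediate early and heat shock genes 1 (3.23%) was higher and 4 (12.9%) lower, and 0 lower without HSC wildtype array 2 and 2 lower without HSC hypomorph array 2. The chaperone gene Hsp90aa1 was at 12.30, 12.59 and 12.52 on the hypomorph and 11.46 and 11.10 on the wildtype arrays and rose by 1.19 (SE 0.21, limma adjusted p = 0.00296). The AP-1 gene Junb was at 7.67, 7.36 and 7.45 on the hypomorph and 8.27 and 9.32 on the wildtype arrays (-1.30, limma adjusted p = 0.00943, and -0.77, limma adjusted p = 0.140 without HSC wildtype array 2).

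Genes tied to DNA methylation and silencing were followed as lists. Of 24 genes of the methylation machinery, Dnmt1 not among them, 4 (16.7%, against 5.37% of all genes) were called higher and 0 lower (median -0.19, with 2 higher without HSC wildtype array 2 or HSC hypomorph array 2). Uhrf1, which brings Dnmt1 to hemimethylated DNA, was at 10.88, 11.11 and 11.09 on the hypomorph and 9.55 and 7.93 on the wildtype arrays and rose by 2.29 (SE 0.34, limma adjusted p = 0.00116), or 1.48 without HSC wildtype array 2. Hells, a chromatin remodeller required for methylation, was at 10.04, 10.31 and 10.04 on the hypomorph and 8.19 and 7.83 on the wildtype arrays and rose by 2.12 (SE 0.22, limma adjusted p = 0.000102). Both are also replication list members. Zbtb38, a methyl-CpG binding protein gene, was at 6.87, 8.73 and 9.29 on the hypomorph and 6.56 and 4.18 on the wildtype arrays, and its call (2.93, limma adjusted p = 0.0145) was lost without HSC wildtype array 2 (1.74, limma adjusted p = 0.234) or HSC hypomorph array 2 (2.71, limma adjusted p = 0.0553). Of 37 polycomb and trithorax genes, 2 (5.41%, near the 5.37% of all genes) were higher and 4 (10.8%, against 5.44%) lower, 1 and 0 without HSC hypomorph array 2 or HSC wildtype array 2. The H3K27 methyltransferase gene Ezh2 was at 11.19, 10.85 and 10.69 on the hypomorph and 9.58 and 9.69 on the wildtype arrays and rose by 1.28 (SE 0.24, limma adjusted p = 0.00500). The demethylase gene Kdm6b changed by -1.45, limma adjusted p = 0.0251, lost without HSC wildtype array 2 (-0.83, limma adjusted p = 0.330), HSC hypomorph array 1 (-1.12, limma adjusted p = 0.0554) or HSC hypomorph array 2 (-1.55, limma adjusted p = 0.0517).

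Of 54 germline genes on the array 21 passed the filter on dim probe sets, some of them, as Slc25a31 and Ddx4, while dim in wildtype cells, so a high share of rises is partly set by the filter. Of the 21, 5 (23.8%, against 5.37% of all genes) were called higher and 2 (9.52%, against 5.44%) lower, with 4 to 5 higher and 0 to 2 lower on leaving out an HSC array. Beside Slc25a31, Ddx4 and Syce1, the meiotic cohesin genes Stag3 (1.05, limma adjusted p = 0.0208) and Rec8 (0.88, limma adjusted p = 0.0423) were called higher. Stag3 lost its call without HSC wildtype array 1 (0.81, limma adjusted p = 0.108), and Rec8 without either wildtype HSC array or without HSC hypomorph array 2 or 3. The meiotic genes Spo11 (-1.25, limma adjusted p = 0.0280) and Meiob (-1.22, limma adjusted p = 0.0364) were called lower. Spo11 lost its call without HSC wildtype array 2 (-0.83, limma adjusted p = 0.312) or HSC hypomorph array 3 (-0.93, limma adjusted p = 0.0613), and Meiob without HSC wildtype array 2 (-0.99, limma adjusted p = 0.281) or any 1 hypomorph array.

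Of 37 imprinted genes 8 (21.6%, against 5.44% of all genes) were lower and 1 (2.7%) higher (median -0.40), and 4 and 0 without HSC wildtype array 2. Meg3, a maternally expressed noncoding RNA, was at 6.39, 6.71 and 6.97 on the hypomorph and 9.01 and 9.49 on the wildtype arrays and fell by 2.56 (SE 0.23, limma adjusted p = 3.26e-05). Peg3, a paternally expressed zinc finger gene, was at 3.64, 3.16 and 2.93 on the hypomorph and 5.41 and 5.29 on the wildtype arrays and fell by 2.11 (SE 0.26, limma adjusted p = 0.000295). Igf2, the growth factor gene, was at 5.68, 5.44 and 5.61 on the hypomorph and 6.61 and 6.95 on the wildtype arrays and fell by 1.20 (SE 0.20, limma adjusted p = 0.00210). Each of these falls had separate groups, and Peg3 without the filter on dim probe sets was at -0.54, limma adjusted p = 0.135. Gatm, of creatine synthesis, was the member called higher (1.49, limma adjusted p = 0.0273), a call lost on leaving out HSC hypomorph array 1 or 2 or either wildtype HSC array. Of 46 interferon response genes 0 were higher and 7 (15.2%) lower (median -0.47), 2 without HSC wildtype array 2 and 4 without HSC hypomorph array 2. Ifit1 was at 5.28, 5.10 and 5.46 on the hypomorph and 6.88 and 7.54 on the wildtype arrays and fell by 1.93 (SE 0.27, limma adjusted p = 0.000696), and Rsad2, an antiviral enzyme gene, was at 7.55, 7.49 and 7.46 on the hypomorph and 9.10 and 8.88 on the wildtype arrays and fell by 1.49 (SE 0.28, limma adjusted p = 0.00460). Both were separate between groups. Of 19 MHC genes 0 were higher and 2 (10.5%) lower, the class II gene H2-Aa at 9.91, 9.65 and 9.45 on the hypomorph and 10.87 and 10.59 on the wildtype arrays (-1.06, limma adjusted p = 0.0132) among them. This count was 0 without HSC wildtype array 1, where H2-Aa was at -0.92, limma adjusted p = 0.0602, 4 without HSC hypomorph array 1, and 1 without HSC hypomorph array 2 or HSC wildtype array 2.

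Called genes were spread over the genome. Between 8.58% (chromosome 15) and 13.4% (chromosome 9) of tested genes were called on each autosome. On the X chromosome, 29 of 386 genes were higher and 16 lower, or 11.7% called. Of the 4 sex-linked genes listed, 0 were called by limma and 0 had an unadjusted p under 0.05, and the noncoding RNA Xist was at 9.83, 12.70 and 12.50 on the hypomorph and 11.96 and 12.63 on the wildtype arrays. Eif2s3y was at 8.68 and 2.35 on the wildtype arrays, and its change had an SE of 2.51. The lack of calls therefore does not show that sex was alike between the groups.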

How the data were processed

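RNA of 35000 to 100000 sorted cells, per the labels, was hybridised to Affymetrix arrays and the authors computed RMA values, per the submitters' processing notes, read here as log2 intensities from their range (1.93 to 14.99). The HSC gate and the RMA version are not given in the sources used here. A deposited table holds 45101 probe sets and 24 columns, 13 of them the normalization of all arrays, and 0 columns were unused. Same-label columns of the further normalization of 11 arrays correlated at 0.999 or more. Of the probe sets, 34958 had 1 gene symbol, 932 several and 9211 none in GEO's platform annotation, and 34754 matched a current Entrez entry. Probe sets with 2 or more arrays at or above the median of all values (4.64) were kept, and each gene took its probe set of highest mean. The filter lets a gene enter on the strength of 1 group, hypomorph HSC included. Of 1380 called genes, 676 had further tested probe sets, of opposite sign in 181 and called so in 3.

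One limma 3.58.1 model (R 4.3.3) of 5 groups, with 8 residual degrees of freedom, gave changes, with SEs and Benjamini-Hochberg adjustment over all genes tested. Array number limits precision, array medians were 4.56 to 4.74, and no detection calls were used. Genes named are Dnmt1, the 10 largest called rises and falls with separate groups, the 4 largest each way in the MP-high and B-high classes, the leading called member of each list in each direction (or its smallest p) and 7 lineage regulators. All others named were chosen after their values were seen. The 33 lists, the members and the tests were chosen with earlier results of these data known. Alternatives were the other normalization, replicate block, HSC arrays alone, prior, array weights, filters, probe set averaging, centring and leaving out each array. The exchange of wildtype arrays together with leaving out the replication and mitosis lists, and each hypomorph array alone, were added after seeing the data.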

Additional observations from a re-analysis of the deposited data

Results flagged for a closer look

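Of 70 genes named by the rule, 62 were called in HSC, and for 38 the genotype effect in HSC differed from that in MP by the interaction term of the limma model, given here as the effect in HSC minus that in MP (720 of all genes, or 5.64%, were called in that test). Most were named through a called change in HSC, and the interaction term uses that same change. The count of 38 is therefore partly set by the choice of genes. Among genes that rose in HSC, the difference was largest for Ccr1 (5.08, limma adjusted p = 2.15e-05), Depdc1a (4.75, limma adjusted p = 0.00263), Esco2 (4.36, limma adjusted p = 0.00203), Ccne2 (4.30, limma adjusted p = 0.000322), Chdh (4.17, limma adjusted p = 4.21e-05) and Gem (3.56, limma adjusted p = 0.00859). It was next largest for Ccr2 (3.54, limma adjusted p = 0.000176), Btnl9 (3.50, limma adjusted p = 0.000585), Ctsg (3.24, limma adjusted p = 0.00445), Cpa3 (3.14, limma adjusted p = 0.00131), Lrr1 (3.09, limma adjusted p = 0.000222) and Tent5a (2.76, limma adjusted p = 0.00823). Between 2 and 3 lay Btla (2.50, limma adjusted p = 0.00131), Itgal (2.49, limma adjusted p = 0.00445), Tgfbi (2.45, limma adjusted p = 0.0388), Ddx21 (2.11, limma adjusted p = 0.0294), Rhag (2.04, limma adjusted p = 0.0460) and Sgk1 (2.04, limma adjusted p = 0.0361). Smaller differences were those of Ezh2 (1.63, limma adjusted p = 0.0133), Hsp90aa1 (1.63, limma adjusted p = 0.00633), Gata1 (1.6, limma adjusted p = 0.0395) and Slamf1 (1.51, limma adjusted p = 0.0184).

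Among genes that fell in HSC, the difference was largest in size for Pde2a (-2.97, limma adjusted p = 0.000892), Meg3 (-2.72, limma adjusted p = 0.000738), Krt8 (-2.64, limma adjusted p = 0.00135), Htra3 (-2.57, limma adjusted p = 0.000630), 4930426D05Rik (-2.28, limma adjusted p = 0.00979) and Inha (-2.20, limma adjusted p = 0.00628). It was next for Junb (-1.93, limma adjusted p = 0.0112), Ndn (-1.68, limma adjusted p = 0.00979), Rhbdf1 (-1.66, limma adjusted p = 0.0362), the biliverdin reductase gene Blvrb (-1.63, limma adjusted p = 0.0229) and Mmp2 (-1.53, limma adjusted p = 0.0362), which changed by -2.99 (limma adjusted p = 6.94e-05) in MP. Smaller were those of Fzd4 (-1.48, limma adjusted p = 0.0284), Cish (-1.42, limma adjusted p = 0.0340), Ltb (-1.40, limma adjusted p = 0.0455), Ncam1 (-1.28, limma adjusted p = 0.0466) and Cd247 (-1.16, limma adjusted p = 0.0350). Slc25a31, with a change of 5.70 in HSC and 5.65 (limma adjusted p = 7.51e-05) in MP, was called in both cell types.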

How the results depend on the processing

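With 2 wildtype HSC arrays, both counts of calls depended on single arrays. The 175 called genes followed as single genes kept their direction under every alternative in which they were tested. With only the 5 HSC arrays in the model, 57 of them stayed called. Lower calls were then 3 in each of the stem cell, imprinted and interferon lists, and 0 in the adhesion and megakaryocyte lists. Higher calls were 6 in the granulocyte-monocyte progenitor list, 4 in the mast cell list, 2 in the mature neutrophil and monocyte list and 0 in the erythroid list. The change itself is the same without an MP or B progenitor array, with the HSC arrays alone and with another prior. Those alternatives could not reverse a direction, and genes already called rarely would under the others, so the kept directions are no test of robustness. Genes called higher were 82 with only the 5 HSC arrays and 1153 with array weights, and 254 to 833 on leaving out an array of the 13. Genes called lower were 58, 1193 and 202 to 967, and 453 with arrays centred. The samples share replicate numbers, and whether they were paired is not known. Deviations correlated at -0.198 and 0.005 between same-numbered hypomorph and wildtype HSC arrays. With 2 wildtype arrays, differently numbered pairs give the same values with the sign reversed, so these values cannot decide it. Pairing of HSC with MP arrays of the same genotype was not checked. A replicate block gave 478 higher and 421 lower, and 98 lower among MP-high genes. Array weights, whose estimation stopped short of convergence, gave 290 higher among MP-high and 115 lower among B-high genes. Leaving out an array gave 67 to 178 higher and 38 to 195 lower among MP-high genes, and 38 to 91 and 33 to 93 among B-high genes. The B-high median was -0.0375 with arrays centred and -0.192 to -0.0850 on leaving out an array. In the split of wildtype arrays a class threshold of 4-fold gave medians of 0.72, 0.23 and 1.10 for genes higher in MP alone, in B progenitors alone and in both, and -0.78 and -0.89 for those lower in MP alone and in both. There, alone means a difference of less than 4-fold in the other lineage. The exchange gave -0.0540 for B progenitors alone (-0.0751 also without the replication and mitosis lists) and 0.89 for both. The further normalization has no B progenitors and gave no values for the classes, nor did the HSC arrays alone. With probe sets averaged, the changes of Tfrc (0.62), Hdc (1.11), Ms4a2 (1.70), Meg3 (-1.59), Ncam1 (-1.45), Cdkn1b (1.01), Kdm6b (-0.97), Zbtb38 (1.44) and Ndufb6 (1.21) were smaller and still called, and those of Igll1 (-0.20), Cdkn1a (0.47), Pdk1 (0.67) and H2-Aa (-0.59) were not.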
